A study of Mus musculus with 6 samples.

Results

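The genes described here are 10 genes of natural killer (NK) cells and cytotoxic T cells, Ccl5, Nkg7, Gzma, Gzmb, Prf1, Klrd1, Klrk1, Ncr1, Il2rb and Tbx21, measured in mouse blood after food restriction (FR). A probe belonged to the group if the RefSeq accession it carries maps to one of these symbols. This gave 11 probes of 41174 on the array (10 genes of 16535 named), with 2 probes for Nkg7. The mice were C57BL/6J males aged 9 weeks, and 8 animals per diet received either normal chow (control) or 50% FR for 2 weeks. Whole blood from the heart was used with no sorting of cells, and no genotype or other agent distinguished the diets. RNA of animals 1 to 8 of each diet formed pool 1, animals 1 to 4 pool 2 and animals 5 to 8 pool 3, and each pool was hybridised on 2 two-colour arrays, FR in Cy5 and control in Cy3 on the first and the dyes exchanged on the second. Pools 2 and 3 have no animal in common and serve as the 2 replicates of every test below, except in alternative fits that are named as such. Pool 1 repeats their animals on a separate slide, serves as a second reading of them, and enters only some of the alternative fits. A pool shows no spread between single animals, so the errors below are between 2 pools of 4 animals.

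NK cells and cytotoxic T cells kill target cells by releasing granules at the contact with the target. Perforin opens the target's membrane, granzymes enter and cleave proteins inside the target, and receptors at the NK cell surface set whether granules are released. IL-15, read through the receptor chain that IL-2 also uses, keeps NK cells alive, and the T-box factor T-bet drives their maturation. In blood these cells are a minority beside erythrocytes, platelets, neutrophils, monocytes and B cells, so their transcripts are dim on a whole-blood array.

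Probes well above background, by the scanner software's own flag, made up 37.2% to 62.1% of probes in the control channel and 20.4% to 55.6% in the FR channel over the 6 arrays, and no probe spot was saturated. A probe was tested if control or FR carried that flag on each of the 4 arrays of pools 2 and 3, which left 11510 features. Over these features the ratios of the 2 arrays of a pool correlated at 0.87 in pool 2 and 0.79 in pool 3, and the mean ratios of the 2 pools at 0.85. These are correlations across genes, which are not independent replicates. Values are log2 ratios of FR over control after background correction with an offset of 50, which pulls the ratios of dim probes towards 0. The centre of the normalization puts the median of all tested features at 0.01.

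Of the 10 genes, 7 could be tested, and 5 of them were lower in FR: Ccl5, Nkg7, Gzma, Klrd1 and Il2rb (limma, adjusted p under 0.05). Gzmb and Prf1 did not pass, and Klrk1, Ncr1 and Tbx21 were too dim to be tested. Over all tested features 24.5% were called lower and 3.74% higher. None of the 7 was higher, at an adjusted or an unadjusted p under 0.05 in limma. All 7 had an unadjusted p under 0.05 on the lower side in that fit. The share of all tested features at an unadjusted p was not counted, here or for the lists below. Ccl5, Nkg7 and Gzma fell by at least 2-fold, as 5.82% of all tested features did, with 0.495% higher by as much. The log2 ratios of the 7 ran from -1.67 to -0.28 with a median of -0.80. Control was well above background on 4 of 4 arrays for all 7, while FR was so for Nkg7 alone. The other 6 passed the filter through the control channel only, so their count and median are descriptions of dim probes that could be measured chiefly in one direction. In this unsorted blood, fewer NK and cytotoxic cells and less RNA per cell cannot be told apart.

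**Figure D1:**
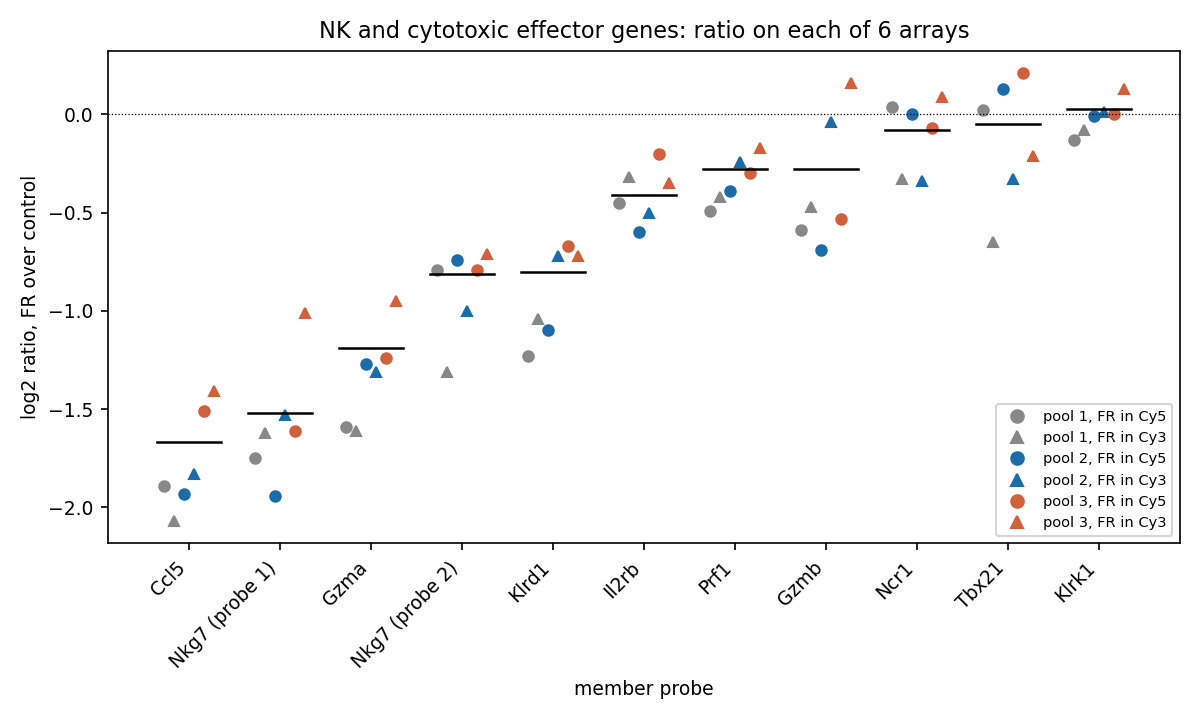
Log2 ratio of FR over control (vertical axis) for each member probe on each of the 6 arrays. Circles are arrays with FR in Cy5, triangles arrays with FR in Cy3, colours mark the pools, and the bar is the mean of pools 2 and 3. Ccl5, the first Nkg7 probe and Gzma lie below 0 on every array, and Klrk1, Ncr1 and Tbx21 lie around 0.

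The granule proteins came first. Gzma, the tryptase-like granzyme of resting NK cells, had a normalised log2 signal of 7.69, 7.86 and 7.65 in control pools 1, 2 and 3 and of 6.09, 6.57 and 6.56 in the FR pools. All FR pools were below all control pools. Pool 1 repeats the animals of the others, so such separations, here and below, rest on 2 independent pools. The share of all tested features with such a separation was not counted. Its log2 ratio was -1.27 and -1.31 on the arrays of pool 2 (FR in Cy5, then in Cy3), -1.24 and -0.95 in pool 3, and -1.59 and -1.61 in pool 1. The mean of pools 2 and 3 was -1.19 ± 0.13 (SD, n = 2 pools), a 2.28-fold fall (limma, adjusted p = 5.43e-15). The FR signal was well above background on 1 of those 4 arrays, so the fold rests on a dim FR channel.

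Nkg7, a protein of the granule membrane that promotes granule release, was the one member whose FR signal cleared background on each of the 4 arrays of pools 2 and 3. Its brighter probe had a log2 signal of 8.25, 8.78 and 8.37 in control pools 1, 2 and 3 and of 6.57, 7.04 and 7.06 in FR, with no overlap. On the single arrays the log2 ratio was -1.94 and -1.53 in pool 2, -1.61 and -1.01 in pool 3, and -1.75 and -1.62 in pool 1. The mean was -1.52 ± 0.30 (SD, n = 2), a 2.87-fold fall (limma, adjusted p = 3.51e-20). The second Nkg7 probe had the same direction on all 6 arrays and a smaller size, -0.81 ± 0.09, or 1.75-fold. FR was well above background at that probe on 1 of 4 arrays.

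Gzmb, the aspartase-like granzyme that cleaves caspases, moved less. Its log2 signal was 7.09, 7.09 and 6.97 in control pools 1, 2 and 3 and 6.56, 6.73 and 6.78 in FR. The pools did not overlap, but within pools 2 and 3 the 2 arrays of a pool did not match each other. In pool 1 the log2 ratio was -0.59 with FR in Cy5 and -0.47 with FR in Cy3. With FR in Cy5 the log2 ratio was -0.69 in pool 2 and -0.53 in pool 3, and with FR in Cy3 it was -0.04 in pool 2 and 0.16 in pool 3. The mean of -0.28 ± 0.13 did not pass (limma, adjusted p = 0.107). From the FR-in-Cy5 arrays alone the value was -0.61 (adjusted p = 1.69e-05) and from the FR-in-Cy3 arrays alone 0.06 (adjusted p = 0.833), both in limma.

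Prf1, which encodes perforin, had a log2 signal of 6.65, 6.88 and 6.67 in control pools 1, 2 and 3 and of 6.19, 6.57 and 6.43 in FR. All FR pools lay below all control pools, and the ratio was below 0 on every array, from -0.39 to -0.17 in pools 2 and 3. The mean was -0.28 ± 0.06 (limma, adjusted p = 0.0541), which missed the threshold. FR cleared background on 0 of the 4 arrays, so the FR level of Prf1 was not measured and the size of the difference is uncertain.

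The promoters of these 4 granule genes are shown because they pair genes that were called lower (Nkg7, Gzma) with genes of the same pathway that were not (Gzmb, Prf1). Each is the 250 bases before the RefSeq start site on build GRCm38.p6, written 5′ to 3′ on the gene's own strand. Capitals mark the RUNX core (TGTGGT or ACCACA) and the T-box core (GGTGTG or CACACC), searched on both strands. These 2 cores can share bases but did not in these windows.
Nkg7 at chr7:43436888-43437137, plus strand: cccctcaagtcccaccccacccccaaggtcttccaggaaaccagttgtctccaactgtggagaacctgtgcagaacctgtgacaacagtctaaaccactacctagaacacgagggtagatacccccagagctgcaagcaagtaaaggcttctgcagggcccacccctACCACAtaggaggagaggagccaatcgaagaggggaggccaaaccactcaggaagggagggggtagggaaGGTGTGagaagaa
Gzma at chr13:113100982-113101231, minus strand: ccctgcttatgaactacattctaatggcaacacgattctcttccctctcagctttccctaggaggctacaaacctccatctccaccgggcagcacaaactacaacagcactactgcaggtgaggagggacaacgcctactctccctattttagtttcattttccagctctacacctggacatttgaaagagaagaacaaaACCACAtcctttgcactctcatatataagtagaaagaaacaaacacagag
Gzmb at chr14:56262335-56262584, minus strand: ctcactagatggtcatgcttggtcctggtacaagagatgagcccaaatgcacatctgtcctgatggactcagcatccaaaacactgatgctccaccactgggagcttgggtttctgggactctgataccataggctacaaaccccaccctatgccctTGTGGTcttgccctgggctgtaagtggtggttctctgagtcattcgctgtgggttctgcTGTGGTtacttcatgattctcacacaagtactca
Prf1 at chr10:61297586-61297835, plus strand: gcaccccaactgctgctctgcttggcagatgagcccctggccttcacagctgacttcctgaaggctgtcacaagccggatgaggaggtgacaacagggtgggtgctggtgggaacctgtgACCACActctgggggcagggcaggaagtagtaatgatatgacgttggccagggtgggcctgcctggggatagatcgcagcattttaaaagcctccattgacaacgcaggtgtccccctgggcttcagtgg
The RUNX core begins 83 bases before the start in Nkg7, 50 in Gzma, 130 in Prf1, and 93 and 34 in Gzmb, where it occurs at 2 places. The T-box core stands 13 bases before the start of Nkg7 and in none of the other 3. RefSeq promoter windows were matched for 7 of the 10 genes, Klrk1, Ncr1 and Tbx21 being the others. The RUNX core was in 6 of the 7 (not in Tbx21), against 14.0% of all 32817 windows of this length. The T-box core was in 1 of the 7, against 16.3% of windows, and the ETS core (GGAA or TTCC) in 5 of the 7, against 93.4%. Genes with the RUNX core included those called lower, those not called and those too dim to test. A match of letters describes the sequence and does not show binding.

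Ccl5, the chemokine RANTES that NK and effector T cells store and release, had the lowest ratio of the 10 genes with the offset, while Gzma was lower from the processed signals (-3.34 against -3.21 for Ccl5). Its log2 signal was 8.36, 8.75 and 8.33 in control pools 1, 2 and 3 and 6.38, 6.86 and 6.87 in FR, with no overlap. On the single arrays the log2 ratio was -1.93 and -1.83 in pool 2, -1.51 and -1.41 in pool 3, and -1.89 and -2.07 in pool 1. The mean was -1.67 ± 0.30 (SD, n = 2), a 3.19-fold fall (limma, adjusted p = 2.51e-24). FR was well above background on 2 of the 4 arrays. Ccl5 and the brighter Nkg7 probe differed by less than the SD between their pools.

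Of the 3 NK recognition receptors Klrd1, Klrk1 and Ncr1, only Klrd1 was bright enough to test. Klrd1 encodes CD94, which pairs with the NKG2 lectins to read the MHC class I molecule Qa-1. Its log2 signal was 7.38, 7.70 and 7.20 in control pools 1, 2 and 3 and 6.24, 6.79 and 6.51 in FR. The ranges did not overlap, and control pool 2 was the brightest. The log2 ratio was -1.10 and -0.72 on the arrays of pool 2 and -0.67 and -0.72 on those of pool 3, with -1.23 and -1.04 in pool 1. The mean was -0.80 ± 0.16, a 1.74-fold fall (limma, adjusted p = 9.14e-08), with FR well above background on 1 of 4 arrays. Where FR and control were not paired by array, its adjusted p in limma was 0.0519, in a fit that called 8.46% of all features lower and 0.99% higher.

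Klrk1, the activating receptor NKG2D that binds stress-induced ligands, did not clear background in either diet on any of the 6 arrays. Its log2 signal was 6.04, 6.07 and 6.02 in control pools 1, 2 and 3 and 5.94, 6.07 and 6.08 in FR, and the 2 diets overlapped. Ncr1, the activating receptor NKp46 that marks NK cells among blood cells, was well above background in control on 1 of the 4 arrays of pools 2 and 3 and in FR on 0 of 4. Its log2 ratio averaged -0.08 ± 0.13, with pool 2 at -0.17 and pool 3 at 0.01. Values at this brightness hold no measured difference between the diets, in either direction. With the filter on dim probes dropped, the adjusted p in limma was 0.89 for Klrk1 and 0.707 for Ncr1, in a fit that called 9.99% of features lower and 1.66% higher.

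Il2rb, the receptor chain through which IL-2 and IL-15 signal, was the weakest of the 5 genes called lower. Its log2 signal was 7.03, 7.21 and 6.97 in control pools 1, 2 and 3 and 6.64, 6.66 and 6.70 in FR. The FR pools lay below all control pools. Its log2 ratio was -0.60 and -0.50 on the arrays of pool 2, -0.20 and -0.35 in pool 3, and -0.45 and -0.32 in pool 1. The mean was -0.41 ± 0.20, a 1.33-fold fall (limma, adjusted p = 0.00704), with FR well above background on 2 of 4 arrays. The call was lost with limma's prior degrees of freedom taken from all 3 pools (adjusted p = 0.0859, with 15.5% of all features called lower and 1.53% higher), with pool 1 in place of pool 2 (adjusted p = 0.0518), and without the pairing by array (adjusted p = 0.165).

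Tbx21, the gene of the transcription factor T-bet, was well above background in control on 3 and in FR on 2 of the 4 arrays and so just missed the filter. Its log2 signal was 6.60, 6.61 and 6.44 in control pools 1, 2 and 3 and 6.29, 6.51 and 6.44 in FR. Pool 3 had the same value in both diets. Its log2 ratio was 0.13 and 0.21 in pools 2 and 3 with FR in Cy5 and -0.33 and -0.21 with FR in Cy3, so its sign followed the dye. The mean was -0.05 ± 0.07 (limma with no filter, adjusted p = 0.874).

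All 7 tested genes had a ratio nearer 0 in pool 3 than in pool 2. The share of all tested features with this pattern was not counted. The median over the 7 was -0.91 in pool 2, -0.69 in pool 3 and -1.14 in pool 1. Pool 1, with the animals of both other pools, was lower than either of them, and its share of probes well above background was the highest of the 3 pools in each diet and dye. The shift between pools 2 and 3 was not particular to the members. Medians in pools 2 and 3 were -0.55 and -0.34 for the related lists below, -1.82 and -1.31 for B cell and -1.26 and -0.43 for monocyte markers. T cell markers (-0.08 and -0.21) and platelet markers (-0.91 and -0.99) did not have it.

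The size of these values depended on the background treatment. In the scanner software's own processed signals, with no offset added, Ccl5 read 1650 and 1750 in control of pool 2 against 221 and 176 in FR, and 1100 and 1220 against 196 and 87.2 in pool 3. Gzma read 942 and 1160 in control of pool 2 against 94.4 and 56.7 in FR, and 738 and 843 against 95.4 and 163 in pool 3. Control exceeded FR on every array for both genes. From the processed signals the log2 ratio was -3.21 ± 0.03 for Ccl5 (9.28-fold), -3.34 ± 0.87 for Gzma (10.1-fold) and -2.42 ± 0.42 for the brighter Nkg7 probe (5.37-fold). It was -2.35 ± 0.78 for Klrd1 and -1.46 ± 0.24 for Il2rb. The 2 Nkg7 probes, which differed with the offset, read -2.42 and -2.39 from the processed signals.

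Gzmb and Prf1 passed with the processed signals, in a fit whose share of all features called was not counted. Gzmb was at -0.92 ± 0.10 (limma, adjusted p = 0.0171) and Prf1 at -1.29 ± 0.04 (limma, adjusted p = 0.000854), with the same filter on dim probes. Prf1 read 312 and 278 in control of pool 2 against 106 and 140 in FR. It read 200 and 230 against 62.8 and 93.3 in pool 3, so control exceeded FR on all 4 arrays. Gzmb read 353 in both diets on the pool 2 array with FR in Cy3 and was lower in FR on the other 3. The FR values of Prf1 miss the background flag on all 4 arrays, so these ratios have no measured FR level behind them. For Klrk1, Ncr1 and Tbx21, which are under the filter, the processed signals gave 0.00 ± 0.26, -0.32 ± 0.94 and -0.51 ± 0.46. The limma fit of processed signals without the filter called 0 of 33268 features in either direction, so it says nothing on these 3 genes.

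**Figure D2:**
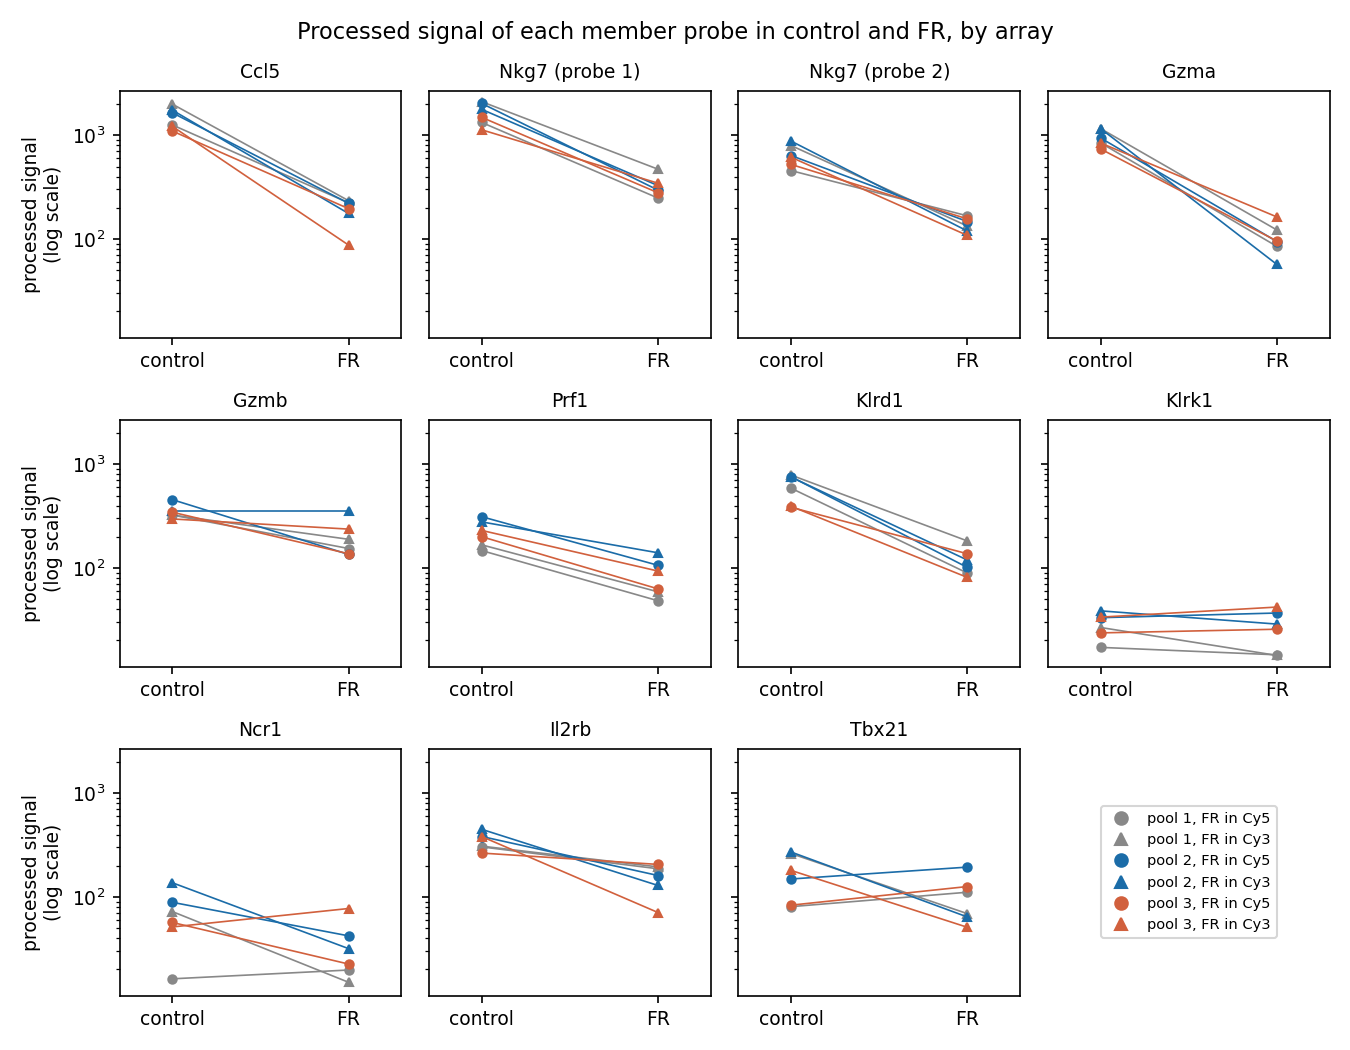
Processed signal (linear intensity on a log axis) of each member probe in control and FR, with a line joining the 2 channels of each of the 6 arrays. Circles are arrays with FR in Cy5, triangles arrays with FR in Cy3, and colours mark the pools. The lines of Ccl5, Nkg7, Gzma, Prf1, Klrd1 and Il2rb fall on every array, whereas those of Tbx21 rise with FR in Cy5 and fall with FR in Cy3.

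**Figure D3:**
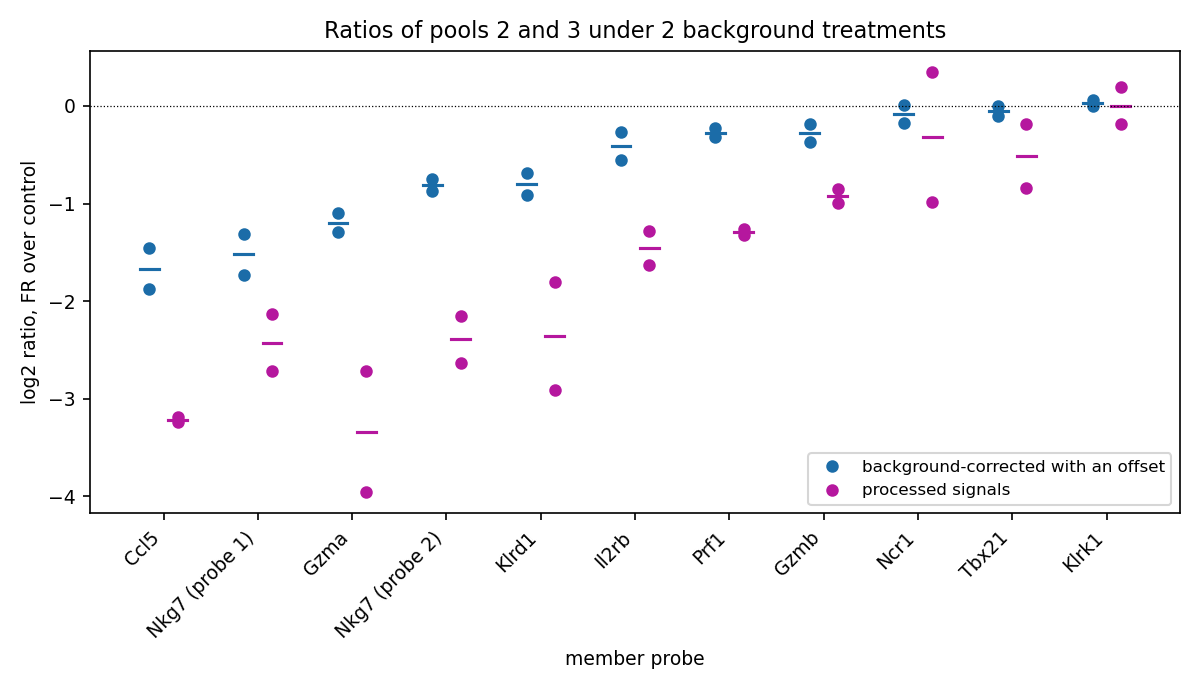
Log2 ratio of FR over control (vertical axis) in pools 2 and 3 (points) and their mean (bar) for each member probe, from background-corrected signals with an offset of 50 and from processed signals. Processed signals give lower ratios for every tested member, from -1.67 to -3.21 for Ccl5 and from -0.28 to -1.29 for Prf1.

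The other genes of NK recognition, killing and maintenance were taken from 6 lists that do not contain the 10 genes. Of 140 listed genes, 131 had a probe and 69 were tested. Of these, 37 were lower, 0 were higher (0 also at an unadjusted p under 0.05 in limma) and 32 did not pass. Their median log2 ratio was -0.38, against 0.01 over all tested features, and for 42 of the 69 the FR signal missed the background flag on at least 1 of the 4 arrays. The share called lower among all tested features was 24.5%.

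Among the NK and lectin-like receptors, 7 of 28 on the array were tested, and 3 of them were lower. Cd226, an activating receptor for nectin-like ligands, fell by 1.53 ± 0.10 on the log2 scale (limma, adjusted p = 6.66e-23). Its 4 probes ranged from -1.53 to -0.42, and which blood cells gave its signal was not tested. Fcgr3, the low-affinity IgG receptor of antibody-dependent killing that monocytes and neutrophils also carry, was at -0.66 ± 0.42, and Klra9, a Ly49 receptor for MHC class I, at -0.37 ± 0.01. FR cleared background on 0 of 4 arrays for Klra9, so the size of its fall was not measured. The Ly49 genes are near-identical, and 1 probe may detect several of them. Klrb1c (NK1.1) and Klrg1, markers of NK cells and of mature effector cells, were too dim to test, at -0.15 and 0.03. Cd160, Klrc1 and Klrc3 did not clear background in control on any of the 4 arrays.

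The adaptors that carry receptor signals had 7 of 15 tested genes lower and 8 without a call, and their median was -0.29. Tyrobp (DAP12) was at -2.0 ± 0.68, Fcer1g at -1.91 ± 0.27 and Plcg2, a phospholipase of B cells and myeloid cells too, at -1.92 ± 0.55. The FR signal of these 3 cleared background on each of the 4 arrays, and monocytes and other myeloid cells also express them. Hcst (DAP10), the adaptor of NKG2D, was at -0.79 ± 0.30 (limma, adjusted p = 3.33e-06). Cd247, the zeta chain used by NKp46 and the T cell receptor, was not tested and read -0.18.

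Of 12 tested genes of granule contents, processing and release, 7 were lower and 5 had no call, and the median was -0.56. Coro1a, an actin regulator of granule release in many leukocytes, fell the furthest of the list at -2.68 ± 0.47, though its other probe read -1.35. Srgn, the proteoglycan that packs granule proteins, was at -1.70 ± 0.23, and the lysosomal membrane protein Lamp2 at -1.45 ± 0.11, with its other probe at -0.97. Ctsw, a cathepsin of NK and cytotoxic T cells, was at -0.74 ± 0.32 (limma, adjusted p = 8.07e-06). Gzmm and Gzmk, further granzymes of lymphocytes, were not tested and read 0.03 and 0.02, and Gzmc, Gzme, Gzmf, Gzmg and Gzmn did not clear background in control on any array of pools 2 and 3.

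Cytokine receptors and their signalling had 6 of 11 tested genes lower and a median of -0.42. Jak1, a kinase on many cytokine receptors, was at -1.96 ± 0.07, Il2rg, the chain that pairs with Il2rb, at -0.71 ± 0.19, and Stat5b, which carries the IL-2 and IL-15 signal, at -0.71 ± 0.22. The second Stat5b probe read -0.10, and FR cleared background on 1 of 4 arrays for Il2rg. Stat4, which carries the IL-12 signal, was at -0.66 ± 0.28 (limma, adjusted p = 1.59e-06), but its FR signal cleared background on 0 of 4 arrays, so the size of its fall was not measured. Among transcription factors, 5 of 10 tested genes were lower, led by Foxo1, a factor of lymphocyte quiescence, at -1.59 ± 0.37, Zeb2, a factor of late NK maturation, at -0.71 ± 0.09, and Lef1, a factor of naive T cells, at -0.70 ± 0.39. The second probes of Foxo1 and Zeb2 read -0.78 and -0.47, and FR cleared background at the brighter Foxo1 probe on 2 of 4 arrays. Eomes, the T-box partner of T-bet, did not clear background in control on any of the 4 arrays.

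Of 14 tested cytokines, chemokines and trafficking receptors, 9 were lower and 5 had no call, and the median was -0.58. Ccl9, a chemokine of myeloid cells, was at -1.54 ± 0.90 and Ccr7, the receptor for lymph node entry, at -1.35 ± 0.25. FR cleared background on 3 of 4 arrays for Ccl9 and on 1 of 4 for Ccr7. Ifng, the main cytokine product of NK cells, was tested and read 0.04 ± 0.04 (limma, adjusted p = 0.836). S1pr5, the receptor with which NK cells leave the marrow, read -0.21 ± 0.03 and did not pass (limma, adjusted p = 0.101). FR cleared background on 0 of 4 arrays for S1pr5, so the size of its difference was not measured. Xcl1 was too dim to test and read -0.12.

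**Figure D4:**
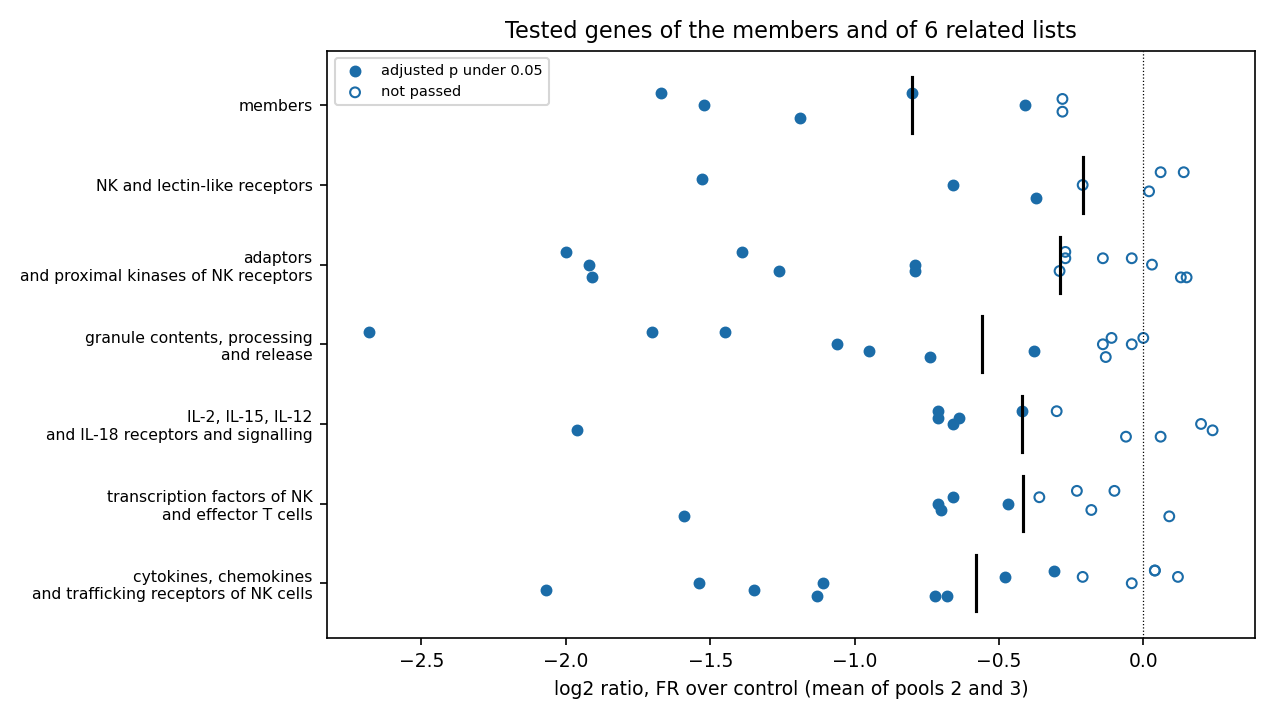
Log2 ratio of FR over control (horizontal axis, mean of pools 2 and 3) for the tested members and the tested genes of the 6 related lists. Filled points are genes with an adjusted p under 0.05, open points genes that did not pass, and the bar is the list's median. No filled point lies above 0, and the medians run from -0.80 for the members to -0.21 for the NK and lectin-like receptors.

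Markers of B cells, monocytes and platelets were mostly lower too. For the 10 members, the normalised signals summed to 1580 to 1960 in control and 962 to 986 in FR over pools 2 and 3. These sums, here and for the lists below, include the offset and every gene with a probe, dim ones such as Klrk1 too. Their sizes and the gap between the diets therefore depend on the offset, and sums of different lists were not compared. B cell markers had 13 of 15 tested genes lower, a median of -1.58 and sums of 12400 to 18200 in control and 3380 to 3400 in FR, led by Cd79b (-4.48 ± 0.27) and Fcmr (-3.77 ± 0.31). Monocyte markers had 8 of 11 lower, a median of -0.84 and sums of 32000 to 47400 against 5490 to 6440, with Ctss at -3.48 ± 0.88 and Lyz2 at -3.23 ± 0.70. The other Lyz2 probe read -2.0. Platelet markers had 11 of 14 lower and sums of 106000 to 107000 against 44400 to 46600, with Ppbp at -2.67 ± 0.55 and P2ry12 at -2.07 ± 0.32. The summed FR level lay below the control level in both pools in each of these lists.

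T cell markers bear on the members directly, since cytotoxic T cells share most of these genes. Of 13 tested, 5 were lower and 8 had no call. Their median was -0.12, and the sums were 5620 to 5750 in control and 4220 to 4340 in FR. Cd3d was at -1.89 ± 0.25 and Thy1 at -1.88 ± 0.33, and the second Thy1 probe read -0.16. Cd3e, a chain of the same receptor complex as Cd3d, read -0.05 ± 0.14 (limma, adjusted p = 0.829). Cd4 was too dim to test and read 0.11, and no probe was named as Cd8a.

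Neutrophil and erythroid markers did not all have one direction. Of 11 tested neutrophil genes 5 were lower and 1 was higher, with sums of 12000 to 23300 in control and 10600 to 10900 in FR. Clec4d was at -1.51 ± 0.03, S100a9 at -0.73 ± 0.77 and Lcn2 at 0.33 ± 0.40 (limma, adjusted p = 0.0328). Of 14 erythroid genes 1 was lower and 4 were higher, with sums of 668000 to 784000 against 797000 to 917000, led by Slc25a37, the mitochondrial iron importer, at 1.05 ± 0.61. For 3 of the 14, Alas2 among them, the sign of the ratio followed the dye over all 6 arrays, as it did for 7.54% of all tested features and for 0 of the 7 tested members. Of 5 tested mast cell and basophil genes 1 was lower, Gata2 at -0.33 ± 0.07 (limma, adjusted p = 0.0394), and Kit and Mcpt8 did not clear background in control on any of the 4 arrays. The part of these other cell types in the ratios of the members and of the related genes was not tested.

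The named genes outside the group whose ratios over the 6 arrays lay nearest the median profile of the 7 tested members were Gimap5, Tomm7, Rpl27a, Nfatc1 and Rpl30. That profile was -1.23 and -1.04 in pool 1, -1.10 and -0.72 in pool 2, and -0.67 and -0.72 in pool 3, FR in Cy5 first. The root mean square difference from it was 0.10 for Gimap5, a GTPase of lymphocyte survival, 0.13 for Tomm7, a subunit of the mitochondrial import pore, and 0.14 for each of the other 3. Nfatc1 is a calcium-responsive transcription factor of lymphocytes, and Rpl27a and Rpl30 encode ribosomal proteins. Their mean log2 ratios were -0.75 ± 0.12 for Gimap5 (FR above background on 0 of 4 arrays), -0.83 ± 0.23 for Tomm7 and -0.73 ± 0.22 for Nfatc1.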

How the data were processed

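RNA of whole blood was measured on 6 two-colour Agilent arrays. Per the labels' protocols, it was extracted with a column kit, amplified and labelled. The deposited scanner output gives the intensity of each spot on a linear scale. The submitters' processing notes name Agilent Feature Extraction 11.0.1.1. The authors' deposited series table holds log10 values. They matched log10 of the red processed signal divided by the green one and served as an alternative.

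Median signals (means had been planned, but the columns hold medians) were corrected with normexp (offset 50) and normalised by loess within arrays, with control spots at weight 0. Outlier spots were left out, spots of a probe averaged and signs turned to FR over control, by the dyes in the labels. Of 41174 probes, 23374 were named through RefSeq (GRCm38.p6). Each gene was represented by its brightest probe on average. Ratios of pools 2 and 3 were tested against 0 with limma 3.58.1 in R 4.3.3 (eBayes with trend, two-sided, Benjamini-Hochberg over 11510 features), after a check on simulated data. With 2 replicates limma took 1 common variance at each brightness, so small p-values overstate the certainty. The simulated data drew their noise from that same variance, so the check could not show this.

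The genes and lists were chosen with earlier results of these data known. All 10 members are named. In each related list the 3 largest falls and 2 largest rises past the threshold are named, in each other cell list the 2 largest falls and the largest rise, and a set of further genes such as Eomes, Ifng and Cd3e is named whatever its values. Some genes that this rule would name are not reported here. FR and control of a pool share every array, so the pairing comes from the array, not from shared animals. Array number limits the precision. Alternatives numbered 19, 1 of them chosen after seeing the data.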

Additional observations from a re-analysis of the deposited data

Results flagged for a closer look

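Among the genes named by rule, the sign of 4 dim genes followed the dye. Brighter genes did so too: 868 of 11510 tested features (7.54%), among them 3 of 14 erythroid markers, such as Alas2 at 0.78 with FR in Cy5 and -0.53 with FR in Cy3. For the 4 dim genes the pattern was as follows. The 3 arrays with FR in Cy5 lay on one side of 0 and the 3 with FR in Cy3 on the other, and the difference was not tested. For Tbx21 the mean log2 ratio was 0.12 with FR in Cy5 and -0.39 with FR in Cy3, a difference of 0.51. For Gzmk it was -0.23 and 0.21, a difference of -0.44. For Klrg1 it was -0.15 and 0.19, a difference of -0.34, and for Cd4 it was -0.11 and 0.25, a difference of -0.36. None of the 4 passed the filter on dim probes.

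Klrb1c and Gzmm were not tested in pools 2 and 3 but were well above background in a diet on both arrays of pool 1, which the main fit left out. Their log2 ratio in pool 1 was -0.25 for Klrb1c and 0.07 for Gzmm.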

How the results depend on the processing

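The count of 5 members called lower was within 1.5 times of that value, from 4 to 7, under 16 of 19 alternatives. The share of all features called was not counted in most of these fits, so this range and the tallies by gene below are descriptions. The count was 1 of 1 tested with both diets required above background and 3 with no replicate block (FR and control not paired by array). It was 0 of 10 with no filter and processed signals together, an alternative chosen after seeing the data. There limma called no feature at all, while 7 members had an unadjusted p under 0.05 on the lower side. The share of all features at an unadjusted p was not counted there, so this 7 and the 41 related genes below are descriptions. Members higher stayed at 0 under all 19. As 6 of the 7 tested members passed the filter through the control channel only, this 0 is a description and no support for a direction. The 37 of 69 related genes called lower became 15 of 27 tested, 21 of 69 and 0 of 131 under the same 3 settings. With the last, 41 had an unadjusted p under 0.05 on the lower side in limma. The share of all features called with both diets above background was not counted. Related genes called higher, 0 in the main setting, numbered 1 with FR-in-Cy5 arrays only, 1 with FR-in-Cy3 arrays only and 5 with slide as a block on 6 arrays.

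The median of -0.80 over tested members became -2.35 with processed signals, -2.43 with the authors' series table, -1.04 with median centring, -0.34 with no filter (10 members), -1.52 with both diets above background (1 member), and -1.37 with no filter and processed signals together. With pool 1 in place of pool 2 or of pool 3 it was -0.92 or -1.03, and the count lower was 4 or 7. Pool 1 shares animals with both. Related genes called lower were 36 and 48 in those fits. The share of all features called in them was not counted, so these counts are not results about the members. Gzmb reversed to 0.06 with FR-in-Cy3 arrays only. Ccl5 and Gzma passed under 17 of 18 alternatives and Nkg7 under 18 of 19, each lost only where no feature was called, with log2 ratios from -3.22 to -1.43, from -3.34 to -0.95 and from -2.43 to -1.16. Klrd1 passed under 16 of 18, Il2rb under 14, Prf1 under 10 and Gzmb under 8.

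The cause of these changes was not tested, except that the filters change the number of genes tested. Over all features the share called lower was 24.5%, 15.5% with limma's prior taken from 3 pools and 8.46% with no replicate block. Signal over background in the FR channel limits what can be measured for every member but Nkg7. Net signals of spots not above background had medians of 7 to 11 in Cy5 and 28.5 to 63 in Cy3.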
